A study of Mus musculus with 2 samples.

Results

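The embryonic and minor globin genes of the mouse were described in the liver of the embryo. They are the beta-type genes Hbb-y, Hbb-bh1 and Hbb-bh2 and the alpha-type genes Hba-x, Hbq1b and Hbq1a. These 6 genes were matched by symbol, through a mouse gene annotation, to the identifiers of the gene tables, and all 6 were found among the 43346 mouse genes there. The 4 adult globin genes served as the reference, Hbb-bs and Hbb-bt for the beta type and Hba-a1 and Hba-a2 for the alpha type. The libraries were made from polyadenylated, rRNA-depleted RNA above 200 nucleotides in size, isolated from livers of C57BL/6J embryos at day 14 of gestation and read from both ends with strand kept. The single group held 2 libraries, labelled biological replicates 1 and 2. Littermates of both sexes were pooled for each, and the labels name no treatment and no altered allele. As the donor entry is the same for both and separate litters are not stated, what the spread between them covers is not known. With 1 group there is no comparison of conditions, and all values are descriptions of these 2 libraries. The plus-minus values are SD over n = 2 libraries.

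Hemoglobin is a tetramer of alpha-type and beta-type globin chains, encoded in separate clusters on different chromosomes. In the mouse the first red cells, called primitive, arise in the yolk sac and make the embryonic chains: epsilon-type chains from Hbb-y, beta-h1 chains from Hbb-bh1 and zeta chains from Hba-x. The fetal liver then becomes the main site of definitive red cell formation, whose cells make the adult chains, and primitive cells are still in the circulation at this stage. Hbq1a and Hbq1b are theta-globin genes, relatives of the alpha genes whose role is not established, and Hbb-bh2 is a further beta-type gene next to Hbb-bh1.

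The upstream sequences of these genes are shown first because they differ in letters that are well known from globin promoters. RefSeq promoter windows of build GRCm38.p6 were matched by symbol for the 4 adult genes and for 5 of the 6 genes, all but Hbb-bh1. Each line below runs 5′ to 3′ on the gene's own strand and ends at the RefSeq start site, or at the GENCODE start where that lies further upstream. Capitals mark matches to CACCC or CCAAT on either strand, to a GATA word on either strand, and to ATAAA or else ATAAG on the gene's strand within the last 40 bases before the start. The GATA words searched were AGATAA with its variant AGATAG, and TGATAA with its variant TGATAG. The 4 kinds do not overlap in these windows.
Hbb-y, chr7:103853217-103853407, minus strand: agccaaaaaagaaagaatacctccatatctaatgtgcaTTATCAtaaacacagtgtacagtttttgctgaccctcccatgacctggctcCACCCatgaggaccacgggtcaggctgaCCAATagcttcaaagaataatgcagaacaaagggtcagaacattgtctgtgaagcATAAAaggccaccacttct
Hbb-bh2, chr7:103840522-103840721, minus strand: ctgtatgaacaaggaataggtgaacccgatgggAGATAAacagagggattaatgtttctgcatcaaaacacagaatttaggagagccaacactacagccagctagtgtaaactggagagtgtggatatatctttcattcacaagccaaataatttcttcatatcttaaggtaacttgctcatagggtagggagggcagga
Hbq1b, chr11:32286764-32286963, plus strand: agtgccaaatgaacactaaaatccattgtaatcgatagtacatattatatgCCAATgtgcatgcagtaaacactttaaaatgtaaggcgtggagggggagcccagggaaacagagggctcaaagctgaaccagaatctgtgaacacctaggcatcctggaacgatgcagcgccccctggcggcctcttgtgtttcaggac
Hbq1a, chr11:32299869-32300068, plus strand: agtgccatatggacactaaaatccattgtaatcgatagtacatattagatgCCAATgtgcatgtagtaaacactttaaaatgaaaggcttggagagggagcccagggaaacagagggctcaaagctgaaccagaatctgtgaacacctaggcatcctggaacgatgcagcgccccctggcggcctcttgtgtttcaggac
Hba-a2, chr11:32296292-32296488, plus strand: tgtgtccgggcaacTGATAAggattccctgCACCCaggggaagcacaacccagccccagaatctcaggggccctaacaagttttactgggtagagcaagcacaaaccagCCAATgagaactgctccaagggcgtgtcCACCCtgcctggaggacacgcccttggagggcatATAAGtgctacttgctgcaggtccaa
The GENCODE models of Hba-x and Hbb-bs begin 200 and 168 bases before their RefSeq starts, so for these only the 30 bases around the matches are shown.
Hba-x, chr11:32276485-32276514, plus strand: ctggctcTGATAAcaggctcCACCCtgcaa
Hbb-bs, chr7:103827996-103828025, minus strand: agagccaCACCCtggtaagggCCAATctgc

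In the 200 bases upstream, Hbb-y held all 4 kinds of match: a GATA word at -162, CACCC at -111, CCAAT at -83 and ATAAA at -28, counted from the start site to the first base of the match. Hba-x held a TGATAA word at -108, CACCC at -95 and -198, and ATAAA at -27, but no CCAAT. Each of the 4 adult genes held a CACCC match, a CCAAT match and the ATAAA or ATAAG word, and Hba-a1 and Hba-a2 held a GATA word too. The window of Hbb-bh2 held 1 GATA word, at -167, and none of the other 3 kinds. The theta genes held 1 CCAAT each, at -149, and none of the other 3 kinds, and their windows were identical at 193 of 200 positions (96.5%). Among all 32851 RefSeq promoter windows of the same length, 45.5% held CACCC, 29.3% CCAAT and 21.4% a GATA word, and 8.11% held ATAAA or ATAAG in the last 40 bases, so that the last is the least common of the 4. A match is a string of letters and not a measured binding site.

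Hbb-y was the highest of the embryonic and minor genes and Hbb-bh2 the lowest, and the order of levels was the same in both libraries. Levels are given as TPM, the share of a transcript among all, scaled to a fixed sum, which is corrected for transcript length and can be compared between genes. Hbb-y (ENSMUSG00000052187.3, GRCm38 chromosome 7, 103851749 to 103853216, minus strand) stood at 501 and 350 TPM in replicates 1 and 2, from 27567 and 27666 estimated fragments. Its mean of 425 ± 107 TPM placed it 163rd among 21474 protein-coding genes, next to the apolipoprotein gene Apoc2 (437 ± 23.8 TPM) and the ribosomal protein gene Rpl35 (424 ± 22.3 TPM). Hbb-bh1 (ENSMUSG00000052217.5, GRCm38 chromosome 7, 103841637 to 103843164, minus strand) stood at 197 and 202 TPM, from 9677 and 14267 fragments, and ranked 305th, between the lipid carrier gene Scp2 (200.2 ± 15.5 TPM) and Cnbp (198 ± 21.8 TPM). The 2 libraries nearly coincided for Hbb-bh1, while for Hbb-y replicate 1 was clearly the higher one.

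The zeta gene lay far below both. Hba-x (ENSMUSG00000055609.4, GRCm38 chromosome 11, 32276400 to 32278116, plus strand) stood at 31.2 and 26.8 TPM, from 2254 and 2777 fragments, and ranked 2209th, between Ttll12 (29.0 ± 3.32 TPM) and Syce2 (29.0 ± 0.212 TPM). The theta gene Hbq1b (ENSMUSG00000073063.3, GRCm38 chromosome 11, 32286965 to 32287784, plus strand) was higher than Hba-x in both libraries, at 93.2 and 100.7 TPM from 4172 and 6501 fragments, and ranked 662nd, just below Cox6b2 (97.0 ± 0.651 TPM). Hbq1b was 2.98 times Hba-x in replicate 1 and 3.76 times in replicate 2. Its near-copy Hbq1a (ENSMUSG00000020295.1, GRCm38 chromosome 11, 32300069 to 32300873, plus strand) stood at 5.09 and 6.18 TPM, from 244 and 426 fragments, and ranked 6991st, beside 2700081O15Rik (5.64 ± 0.354 TPM) and Vezf1 (5.63 ± 0.361 TPM). Hbq1b exceeded Hbq1a 18.3-fold and 16.3-fold.

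Hbb-bh2 (ENSMUSG00000078621.1, GRCm38 chromosome 7, 103839124 to 103840520, minus strand) was at the limit of detection. It received 5 fragments in replicate 1, or 0.180 TPM with an exact 95% Poisson interval of 0.0584 to 0.420 TPM, and 8 fragments in replicate 2, or 0.200 TPM with an interval of 0.0863 to 0.394. These intervals cover counting error only. It ranked 13212th, with 38.4% of protein-coding genes below it, and its neighbour Hbb-bh1 was 1092 and 1009 times higher. Going down the order from Hbb-y through Hbb-bh1, Hbq1b, Hba-x, Hbq1a and Hbb-bh2, the lower library of each gene stayed above the higher library of the next, so no pair of neighbours overlapped. The closest pair was Hbb-y and Hbb-bh1, with a ratio of 2.55 in replicate 1 and 1.73 in replicate 2.

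**Figure D1:**
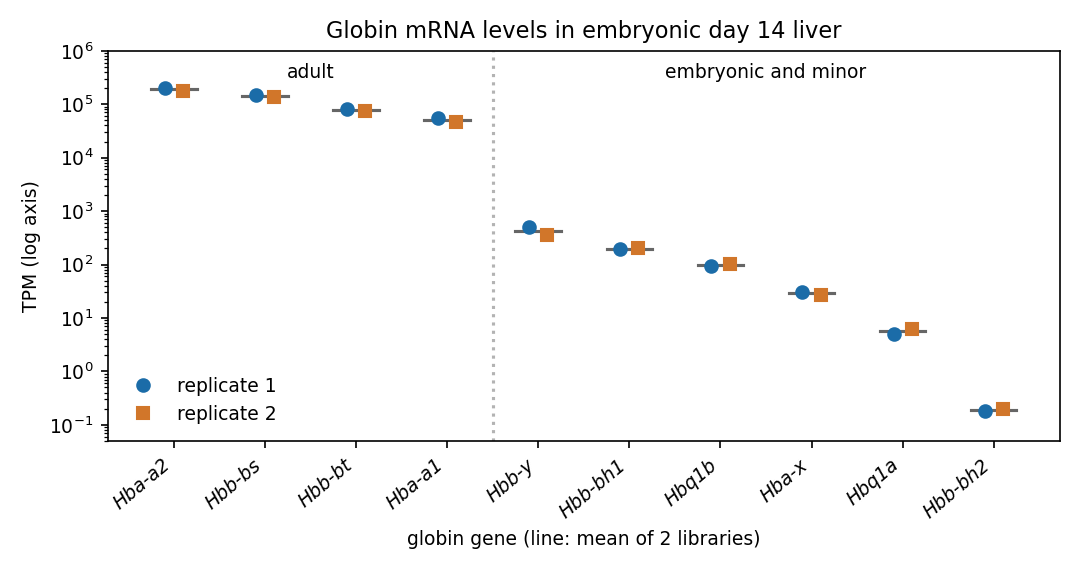
Level in TPM (log axis) of the 4 adult and the 6 embryonic and minor globin genes in each library, with replicate 1 as circles, replicate 2 as squares and the mean as a line. The adult genes lie between 45490 and 202668 TPM, the others between 0.180 and 501 TPM, and the 2 libraries stand furthest apart for Hbb-y among the genes above 10 TPM.

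Most of the embryonic and minor globin RNA was beta-type. The 6 genes summed to 827 and 685 TPM in replicates 1 and 2, and Hbb-y made up 60.5% and 51.0% of that. The 3 beta-type genes gave 697 and 552 TPM (mean 624 ± 103), and the 3 alpha-type genes gave 130 and 134 TPM (132 ± 2.92). Among the embryonic chains alone, Hbb-y and Hbb-bh1 together were 22.3 times Hba-x in replicate 1 and 20.6 times in replicate 2. Adult beta-type and alpha-type RNA were nearly level with each other, at ratios of 0.880 and 0.943. Of the alpha-type embryonic and minor RNA, Hbq1b alone made up 72.0% and 75.3%.

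Set against the summed adult genes of the same chain type, each embryonic or minor gene was a small fraction. The adult beta genes summed to 227547 and 212709 TPM in replicates 1 and 2, and the adult alpha genes to 258453 and 225455 TPM. The adult beta sum was 454 and 609 times Hbb-y and 1158 and 1054 times Hbb-bh1. For the alpha type, the adult sum was 8276 and 8422 times Hba-x, 2774 and 2239 times Hbq1b, and 50777 and 36481 times Hbq1a. On the log2 scale the gap for Hbb-bh2 was 20.27 and 20.02, from the 5 and 8 fragments above. The 3 beta-type genes together held 0.306% of beta-type TPM in replicate 1 and 0.259% in replicate 2, and the 3 alpha-type genes held 0.0501% and 0.0592% of alpha-type TPM. The beta-type share was thus higher in replicate 1 and the alpha-type share higher in replicate 2, and neither ordering can be tested with 2 libraries. RNA from a tissue does not tell fewer cells of a type apart from less RNA per cell.

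The share of Hba-x was the steadiest of the 6, at 0.0121% of alpha-type TPM in replicate 1 and 0.0119% in replicate 2. Hbq1b held 0.0360% and 0.0446%, and Hbq1a 0.00197% and 0.00274%. Hbb-y held 0.219% and 0.164% of beta-type TPM, and Hbb-bh1 0.0861% and 0.0946%. The Hbb-bh2 share was 7.89e-05% and 9.38e-05%.

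**Figure D2:**
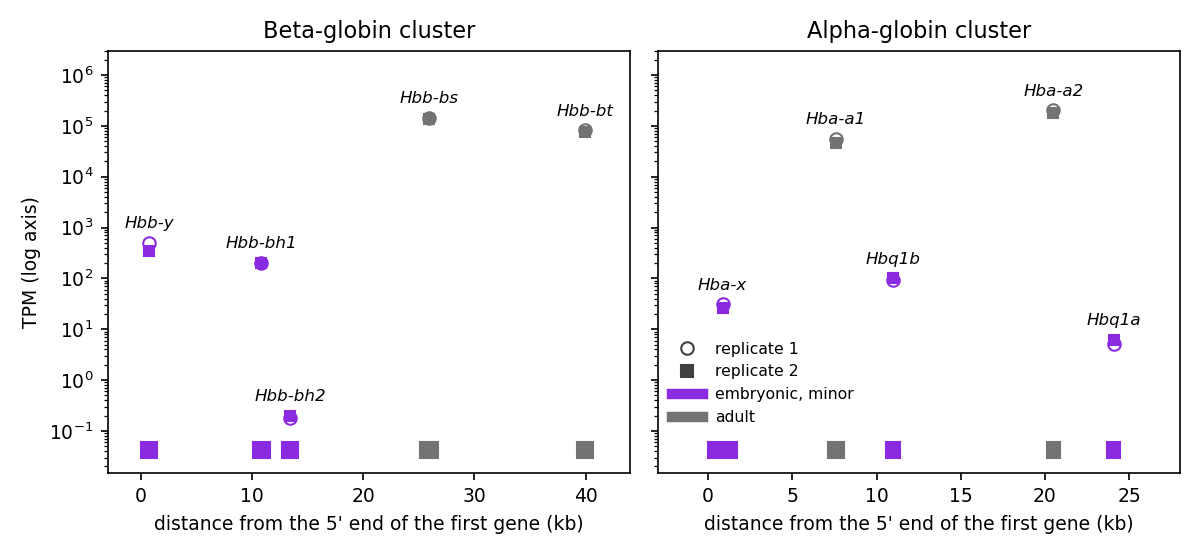
Level in TPM (log axis) of each globin gene at its place in its cluster, as distance in kilobases from the 5′ end of the first gene, with boxes for the genes. In both clusters the embryonic gene comes first, Hbb-bh2 lies 12.7 kb from the start of Hbb-y, and each theta gene follows an adult alpha gene.

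Level neither rose nor fell steadily along either cluster. In the beta cluster the genes read Hbb-y, Hbb-bh1, Hbb-bh2, Hbb-bs and Hbb-bt from 5′ to 3′, with Hbb-bh1 starting 10.1 kb and Hbb-bs 25.1 kb from the 5′ end of Hbb-y. The level fell from Hbb-y to Hbb-bh2 and was highest at Hbb-bs. In the alpha cluster Hba-x is followed by Hba-a1 at 7.11 kb, Hbq1b at 10.6 kb, Hba-a2 at 20.1 kb and Hbq1a at 23.7 kb, so genes of high and low level alternate. Of the genes within 100 kb of the beta cluster, which are mostly olfactory receptor genes, 1 of 14 reached 1 TPM in both libraries: Olfr632, at 1.47 and 1.67 TPM. The lowest, Olfr243, Olfr628 and Olfr64, had 0 counts. Of 6 listed genes around the alpha cluster on chromosome 11, 4 reached 1 TPM in both libraries. The highest was Snrnp25 (66.7 and 64.5 TPM), which encodes a subunit of the minor spliceosome, and the lowest the cytokine receptor gene Il9r (0.0600 and 0.0700 TPM). Luc7l, listed with them, lies on chromosome 17 and is left out of these counts. Hba-x was thus lower than its neighbour Snrnp25, and close to Nprl3 (27.6 and 32.0 TPM), the gene whose introns hold the main alpha-globin enhancers.

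Globin pseudogenes and the globins of other tissues were near 0. Hbb-bh3 and Hba-ps4 had no count in either library, and the limit this sets is 0.286 and 0.206 TPM for Hbb-bh3 and 0.105 and 0.0737 TPM for Hba-ps4, at 3 counts per library. Hbb-bh0 had 0 counts too, but its model is shorter than the fragments and no limit is given. Hba-ps3 was not analysed here. Cytoglobin, Cygb, stood at 0.470 and 0.350 TPM, neuroglobin, Ngb, at 0.0600 and 0.0200 TPM, and Mb, the myoglobin of muscle, had 13 counts in replicate 1 and 0 in replicate 2. In both libraries the Hbb-bh2 value lay above Ngb and below Cygb. Its counting interval, however, holds the Ngb level in replicate 1 and the Cygb level in replicate 2, so this order is not settled.

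Hbb-y was the one gene of the 6 that passed 1.5-fold between the libraries. The ratio of replicate 2 to replicate 1 was computed from counts scaled with TMM, a method that sets the bulk of genes equal, and its interval is the exact 95% interval of counting error. For Hbb-y the log2 ratio was -0.67 (-0.69 to -0.64), or 1.59-fold higher in replicate 1. Of the 14525 genes with at least 100 counts in total, 5.80% passed 1.5-fold in either direction and 4.34% were higher in replicate 1 by that much, beside 1 of the 5 genes here with enough counts. Hba-x followed at -0.37 (-0.45 to -0.29), and Hbb-bh1 at -0.11 (-0.15 to -0.07), which turned to 0.038 in unscaled TPM. Hbq1b at -0.03 (-0.09 to 0.02), or 0.11 in unscaled TPM, and Hbq1a at 0.13 (-0.10 to 0.37) had intervals that include 0. The interval left out 0 for 3 of these 5 genes and for 52.6% of all 14525, so that at this depth an interval clear of 0 is common. The median log2 ratio was -0.11 over the 5 genes and 0.012 over all genes tested. Hbb-bh2 had too few counts, at 0.0067 (-1.79 to 1.96).

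The size of the Hbb-y difference depends on what it is set against. In unscaled TPM, Hbb-y was 1.43-fold higher in replicate 1, and relative to the summed adult beta genes of the same library it was 1.34-fold higher, both short of 1.5-fold. The log2 ratio of Hbb-y in unscaled TPM was -0.52, where the median of all genes was itself shifted to 0.15. Relative to that median the Hbb-y difference is larger than 1.43-fold. Relative to the median of the erythroid genes below it was 1.74-fold higher. The adult genes were themselves higher in replicate 1, with log2 ratios of -0.23 for Hbb-bs, -0.27 for Hbb-bt, -0.45 for Hba-a1 and -0.32 for Hba-a2. Relative to the adult alpha sum, the log2 ratio of Hba-x was -0.02 and that of Hbq1b was 0.32.

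**Figure D3:**
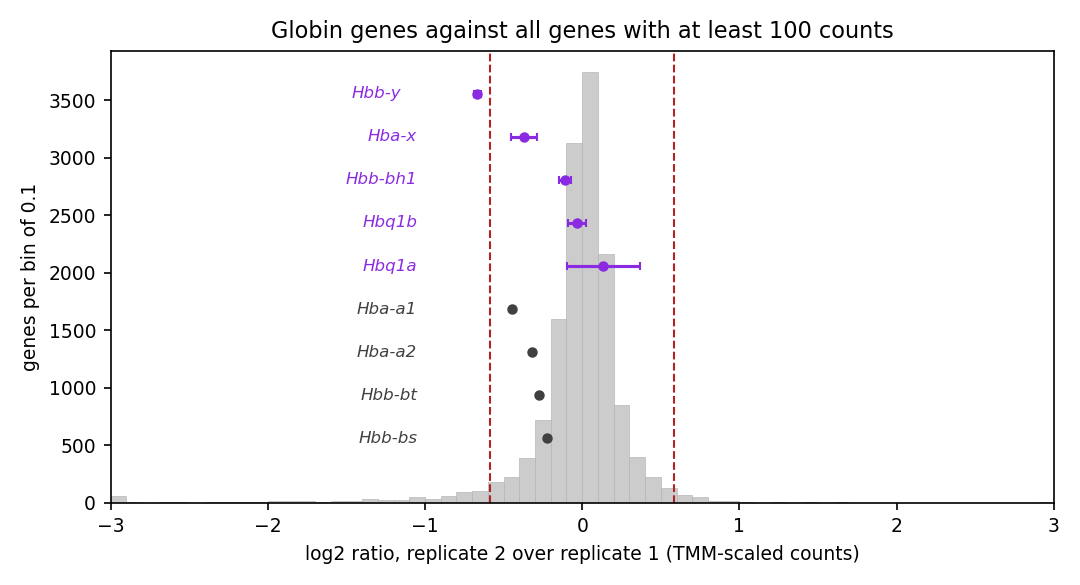
Histogram of the log2 ratio of replicate 2 to replicate 1 for all 14525 genes with at least 100 counts (grey, bins of 0.1, genes beyond 3 in the end bins), with the globin genes as points with 95% counting intervals at arbitrary heights and dashed lines at 1.5-fold. Hbb-y at -0.67 lies beyond the left line, while Hba-x at -0.37 and the 4 adult genes lie between that line and 0.

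Listed red cell genes other than globins had ratios of the opposite sign to Hbb-y. The 4 adult globin genes had the same sign as Hbb-y, with log2 ratios from -0.45 to -0.23. Of 16 listed erythroid genes 15 were in the tables (Ahsp was not analysed here). All 15 had a log2 ratio above 0, from 0.05 to 0.33 with a median of 0.13, and none passed 1.5-fold. Over all 14525 genes tested the median was 0.012, and 5.80% passed 1.5-fold. The listed erythroid genes include Alas2, the first enzyme of heme synthesis in red cells, at 847 and 941 TPM. Slc4a1, the anion exchanger of the red cell membrane, stood at 451 and 531 TPM, so Hbb-y was above it in replicate 1 and below it in replicate 2. Markers of skeletal muscle did differ in the direction of Hbb-y: all 12 listed genes were more than 1.5-fold higher in replicate 1, with log2 ratios from -6.84 to -1.32 and a summed level of 104 and 7.36 TPM in replicates 1 and 2, and none was at 0. Fetal hepatocyte markers had a summed level of 22089 and 25191 TPM, with log2 ratios from -0.04 to 0.12 in 6 genes, and macrophage markers 153 and 197 TPM, with -0.03 to 0.45 in the 7 with at least 100 counts. Hepatocyte and red cell markers were thus present in both libraries labelled liver. The part of other tissues in the Hbb-y difference was not tested.

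Regulators known from globin switching were all expressed and none passed 1.5-fold, beside 5.80% of all 14525 genes tested. All 28 listed genes reached 1 TPM in both libraries, with a median of 16.0 and 17.4 TPM, and their log2 ratios ran from -0.35 to 0.28 with a median of 0.04. The highest was Klf1, a factor that binds CACCC letters and is needed for adult beta-globin expression, at 167 and 201 TPM. Nfe2, a factor of the globin enhancers, followed at 131 and 176 TPM. Lmo2 (138 and 150 TPM) and Ldb1 (110 and 115 TPM), which bridge factors bound at enhancers and promoters, and Gata1 (91.9 and 110 TPM), the main GATA factor of red cells, came next. The lowest was Nfix, at 1.23 and 1.09 TPM. Bcl11a, a repressor of embryonic globin genes, stood at 12.1 and 13.6 TPM, and Lin28b, an RNA-binding protein of fetal blood formation, at 5.30 and 6.16 TPM, both named after their values were seen. Hbb-y exceeded Klf1 in both libraries, Hbb-bh1 was higher in replicate 1 and about equal in replicate 2, and Hba-x was below the 5 highest regulators in both.

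How well reads can be assigned differs within the family. In GENCODE transcripts, no stretch as long as a read of Hbb-y, Hbb-bh1, Hbb-bh2 or Hba-x occurred in a transcript of another gene, and the posterior SD that the authors deposited for their counts was 0. Hbq1b shared 26.4% of its stretches of that length with Hbq1a, and Hbq1a shared 24.2% with Hbq1b, so that their split is an estimate. The deposited posterior SD was 2.07 fragments for each in replicate 1 and 2.84 in replicate 2, which is 0.847% and 0.667% of the Hbq1a count. The adult genes shared more, from 54.7% of stretches for Hbb-bt with Hbb-bs to 74.2% for Hba-a2 with Hba-a1, which is why shares and folds use their sums, and the values of single adult genes are estimates. Coding identity with Hbb-bs was 74.4% for Hbb-y, 73.9% for Hbb-bh1 and 70.3% for Hbb-bh2 over 441 coding bases. Hba-x and Hba-a1 were identical at 61.7% of 426 coding bases, Hbq1b and Hba-a1 at 66.7%, and Hba-x and Hbq1b at 58.2%.

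Transcript tables gave 1 transcript each for Hbb-y, Hbb-bh1, Hbb-bh2 and Hbq1a, and 2 for Hba-x and Hbq1b. The protein-coding transcript of Hbq1b held 87.4% of the gene's TPM in replicate 1 and 85.9% in replicate 2 (86.7 ± 0.999%), and a transcript annotated as retained intron held 12.6% and 14.1%. Counted by fragments instead of TPM, the retained-intron transcript held 16.5% and 18.3%. The second, shorter transcript of Hba-x held 0.833% and 1.38% of its TPM. Among the adult genes, a retained-intron transcript held 57.4% and 57.7% of Hba-a1 TPM in replicates 1 and 2. For Hbb-bs such a transcript held 3.25% and 3.09%, and for Hba-a2 0.0399% and 0.0477%. The adult sums used above include these transcripts. The split between transcripts of 1 gene is an estimate too.

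The older tables of the series, aligned to mm9, kept the order of the 6 genes but not their distance from the adult genes. Those tables give 2 RPKM values per gene, read counts scaled by length and depth, for replicates that they do not name, and the values are the authors'. They list Hbb-y at 47.7 and 94.5 RPKM, Hbb-bh1 at 23.0 and 31.4, Hbq1b at 17.6 and 22.6, Hba-x at 4.38 and 6.50, Hbq1a at 1.61 and 1.73 and Hbb-bh2 at 0.0182 and 0.0209 RPKM. The rank order is that of the TPM values in both columns. The adult genes differed far more between the columns: the beta sum was 3263 and 22787 RPKM and the alpha sum 6776 and 24616 RPKM, ratios of 6.98 and 3.63, while the ratio for the 6 genes summed was 1.66. In the same columns Hbb-y held 1.43% and 0.413% of beta-type RPKM and Hbb-bh1 0.691% and 0.137%, above both of their shares by TPM. Shares were also higher for Hbq1b (0.258% and 0.0916%), Hba-x (0.0644% and 0.0264%) and Hbq1a (0.0236% and 0.00700%). For Hbb-bh2 the first share was 5.47e-04% and the second, 9.11e-05%, lay between its TPM shares.

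**Figure D4:**
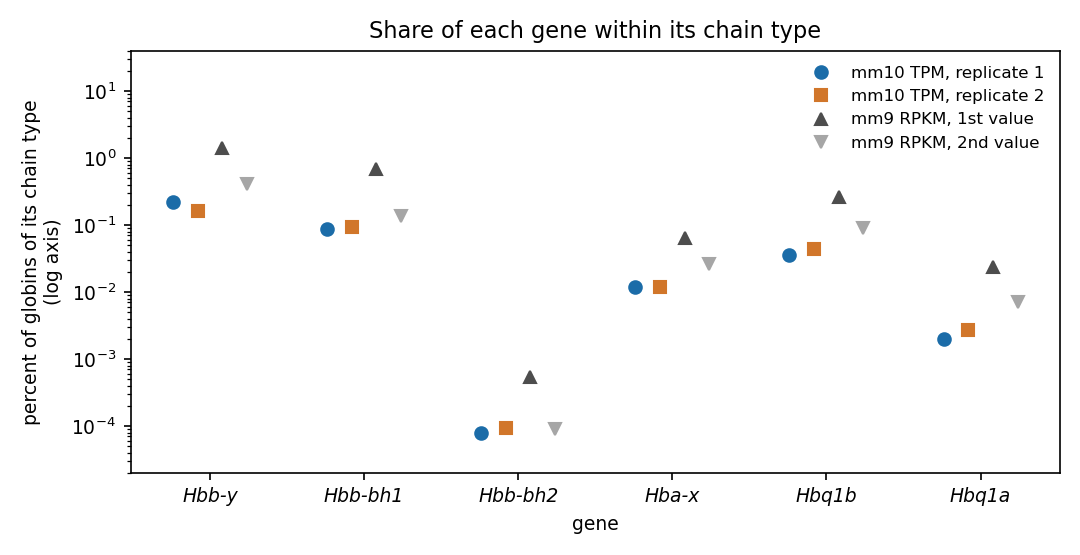
Percent of the summed level of its chain type (log axis) held by each of the 6 genes, from mm10 TPM in replicates 1 and 2 and from the 2 mm9 RPKM values. The first RPKM value gives the highest share for each of the 6 genes, and the second exceeds both TPM shares for all except Hbb-bh2.

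Spliced reads were listed for each of the 6 genes. Each has 3 exons, and the junction list, on mm9 with the reads of both replicates summed, holds both of their introns. Hbb-y had 6655 reads from exon 1 to exon 2 and 23927 from exon 2 to exon 3, a ratio of 3.60, the most uneven of the 6. Hbb-bh1 had 3765 and 6122 reads, Hba-x 1001 and 1459, Hbq1b 3242 and 2587, and Hbq1a 286 and 177. Hbb-bh2 had 9 and 7 reads, so that a few reads were listed over both of its annotated introns, close to the detection limit. Whether these few reads are correctly aligned was not tested. The contig over Hbb-bh2 (mm9, chromosome 7, 110986772 to 110989051, minus strand) had a deposited level of 0.259, against 48.8 for the contig over Hbb-bh1 and 80.8 for that over Hbb-y. Hbq1b and Hbq1a lie in the same contig as Hba-a1 and Hba-a2, of 22428 bases and level 673, which gives no level for the theta genes alone. From exon 2 of Hba-a1, 72 reads were listed to exon 3 of Hbq1b. The part of RNA running on from the adult alpha genes in the theta gene levels was not tested.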

How the data were processed

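The gene and transcript tables hold expected count, TPM and FPKM values that the authors made on mm10 with GENCODE M4, per the deposited readme, with the spike-ins included, and neither aligner nor quantifier is given in the sources used here. The deposited score values used are the posterior SD of each count, per the file headers. On mm9 the authors deposited RPKM text values, a whole-number count of reads over each junction and a signal level per contig, per the file headers. The 2 libraries held 100477392 and 154601605 expected counts, of which 97174777 and 149348514 were on mouse genes, with 3.29% and 3.40% on spike-ins, phiX174 and 26248 numbered features.

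Of the 43346 mouse genes 42462 matched GENCODE M21 for symbols and GRCm38 positions. Positions on mm9 were printed as listed and never converted. Ratios between libraries used rounded expected counts of all genes with TMM effective sizes (edgeR 4.0.16) and exact Clopper-Pearson intervals at 95%. They were tested only on simulated data with counting error alone, which says nothing of other spread between libraries. No p-value was computed, since there is 1 group. Alternatives were DESeq2 1.42.0 size factors, library totals, unscaled TPM, other units, filters, a pseudocount of 0.1, and each replicate left out. Beyond the 6 genes and the adult globins, the genes named were the other globins above 0, the 5 highest and the lowest regulator, any regulator past 1.5-fold, the highest and lowest neighbours, and the protein-coding genes just above and below each gene in mean TPM. 1 gene under this rule is not reported here. The genes and lists were chosen with earlier results of these data known. Sequences are from RefSeq (GRCm38.p6) and GENCODE M21. Scripts ran in Python 3.11.15 (scipy 1.17.1, pandas 2.3.3, numpy 2.4.6; figures with matplotlib 3.10.9) and R 4.3.3.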

Additional observations from a re-analysis of the deposited data

Results flagged for a closer look

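The junction list holds reads that join an exon of an embryonic or theta gene to an exon of another globin gene. Whether the deposited levels above count these reads is not known from the sources used here. The joins were singled out because the level results do not describe them. Only joins that start in an embryonic or minor gene and hold more than 100 reads are listed here. Joins with fewer reads are left out, as are joins that start in an adult gene. From exon 2 of Hba-x, 3943 reads were listed to exon 3 of Hba-a1 and 3564 to exon 3 of Hba-a2, more than the 1459 reads to its own exon 3. From exon 2 of Hbb-bh1, 2929 reads went to exon 3 of Hbb-bs and 2379 to exon 3 of Hbb-bt, fewer than the 6122 to its own exon 3. Exon 2 of Hbb-y had 424 reads to Hbb-bs and 369 to Hbb-bt, beside 23927 to its own exon 3. Exon 2 of Hbb-bh2 had 234 reads to Hbb-bs and 139 to Hbb-bt, against 7 to its own exon 3, a ratio of 33.4 for the larger. Between the theta genes, 3024 reads joined exon 1 of Hbq1b to exon 2 of Hbq1a, and 163 joined exon 2 of Hbq1b to exon 3 of Hbq1a. Whether 1 read is listed at both near-identical adult copies was not tested, so these values are not added.

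The exon edges involved are alike between the genes. The lines give the last 20 bases of exon 2 and the first 20 of exon 3 from GENCODE M21 (GRCm38, chromosome 7, minus strand), with capitals where a base differs from Hbb-bs, whose edge is the same as that of Hbb-bt.
Hbb-y: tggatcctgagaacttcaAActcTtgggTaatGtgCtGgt
Hbb-bh1: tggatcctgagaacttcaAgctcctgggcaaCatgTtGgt
Hbb-bh2: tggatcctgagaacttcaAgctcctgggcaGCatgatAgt
Hbb-bs: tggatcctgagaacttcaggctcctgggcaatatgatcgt
Hbb-bh1 and Hbb-bh2 differ from Hbb-bs at 4 of the 40 bases and Hbb-y at 7. The first 11 bases of exon 3 of Hbb-bh1, the first 10 of Hbb-bh2 and the first 3 of Hbb-y are those of Hbb-bs. For Hba-x, 19 of 20 bases at the end of exon 2 and 17 of 20 at the start of exon 3 match Hba-a1. Whether the joins arose in the cells, in library preparation or in alignment was not tested.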

How the results depend on the processing

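Each choice was varied alone, except that the mm9 RPKM values differ in build, unit and tables at the same time. The values describe these 2 libraries only, and Hbb-bh2 is limited by 5 and 8 counts. Over the main summaries 19 alternative values moved by more than the spread between the libraries or the counting interval, and 25 did not. Over the further values of single genes 54 moved, 2 turned in sign and 86 did neither. With 2 libraries, a summary with 1 replicate left out cannot move by this rule. Shares in FPKM equal those in TPM apart from rounding, and a change of unit moves a level by itself. These counts are therefore no measure of stability. The summed level of the 6 genes was 756 TPM, 908 in FPKM, 940 with counts scaled by effective length and depth and 126 as the mean of the 2 mm9 RPKM sums of 94.3 and 156.8, which are other units. Without replicate 1 or 2 it ranged from 685 to 827 TPM. The beta-type share of 0.282% became 0.228% with expected counts, 1.34% with mm9 RPKM and 0.134% over both chain types together, and the alpha-type share of 0.0547% became 0.0656%, 0.236% and 0.0285% in the same order. The mm9 shares are means of columns that differ widely, 2.12% and 0.550% for the beta type and 0.346% and 0.125% for the alpha type. The log2 ratio of adult genes to the 3 beta-type genes, 8.47, became 8.78 with expected counts and 6.51 with mm9 RPKM, and that for the alpha type, 10.84, became 10.58 and 8.91. The log2 ratio of Hbb-y between the libraries was -0.61 with library totals, -0.52 in unscaled TPM, -0.43 relative to the summed adult genes and -0.80 relative to the erythroid median. At 2-fold in place of 1.5-fold, 0 of the genes passed, beside 2.46% of all genes. With DESeq2 size factors, library totals or lower count minimums 1 passed, where a minimum of 10 counts let 16.1% of all genes pass and a minimum of 1 count 29.9%. In unscaled TPM and relative to the adult genes Hbb-y was short of 1.5-fold. The main Hbq1b transcript held 82.6% by expected counts. Leaving out each replicate gave 0.259% to 0.306% and 0.0501% to 0.0592% for the shares, 8.35 to 8.59 and 10.72 to 10.96 for the log2 ratios to adult genes and 85.9% to 87.4% for the Hbq1b transcript. With 2 libraries these ranges are the values of single libraries and say nothing of stability. The sign of Hbb-bh1 turned, to 0.038 in unscaled TPM and 0.13 relative to the adult genes. Where the interval already held 0, Hbq1b turned to 0.020 with library totals, 0.11 in unscaled TPM and 0.32 relative to the adult genes, and Hbb-bh2 to -0.12 relative to the erythroid median. The median log2 ratio of all genes was 0.15 in unscaled TPM, so signs there are relative to that shift. The causes of these moves were not tested. No paired analysis was possible because the series holds 1 group.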
